A study of Cubamyces sp. BRFM 1775 with 14 samples.

Results

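Of 1052 genes in the deposited expression table of the wood-decaying fungus Leiotrametes sp. BRFM1775, 93 had higher transcript levels on wheat straw, pine and aspen than on both maltose and cellulose. They were chosen from the deposited log2 values of the 5 substrates. A member differed by less than 1 between cellulose and maltose, and its lowest value on a plant material lay at least 1, or 2-fold, above the higher of maltose and cellulose. The levels against maltose and cellulose are therefore descriptions of the choice and were not tested. The differences among the 3 plant materials, whose direction the choice did not fix, were tested. These tests use the same plant material values as the choice and are not independent of it.

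Polyporales fungi that cause white rot degrade all the polymers of wood, including lignin. Cellulose is a chain of glucose units, whereas whole plant material also holds hemicelluloses, pectin, lignin, proteins and extractives that pure cellulose lacks. Grass straw, softwood and hardwood differ in the kinds of hemicellulose and lignin they contain, and softwood such as pine is rich in resin compounds. Fungi of this kind are known to adjust the transcription of genes for secreted enzymes, transporters and detoxification to the carbon source.

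All cultures were of strain BRFM1775, which GEO files under Cubamyces. They were shaken for 3 days at 30 °C in the same mineral medium with yeast extract. The control medium held 20 g/l maltose. Cellulose (Avicel), ground wheat straw and ground pine were each supplied at 15 g/l together with 2.5 g/l maltose. Milled aspen was supplied at 15 g/l, where the labels misprint how much maltose was added. Wheat straw and pine can thus be compared with cellulose at the same maltose concentration, whereas their comparison with the maltose cultures also changes that concentration, and for aspen the amount is not known. By the labels, wheat straw has 2 samples and every other substrate 3. They do not say whether replicates came from separate flasks, so the p-values rest on the spread between libraries alone, which may be technical. Mycelium was frozen with the remaining solid substrate and its RNA was sequenced in bulk. Whether more cells carried a transcript or each cell held more of it cannot be told apart.

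The table gives 1 normalised log2 read count per substrate. Because the lowest values are built from whole reads, the reads behind these means could be solved for 13 libraries, 2 of them on cellulose, where 3 samples are listed. Size factors ran from 0.426 to 1.61, and solved genes had a median of 98 to 800 reads, depending on the library. Solved reads exist for all 93 members on cellulose and wheat straw, for 89 on maltose, 52 on pine and 54 on aspen, and for 50 members in all 13 libraries. Values above 12 on maltose, pine or aspen were not attempted. A member without solved reads on a substrate kept its deposited mean there, and its spread came from the other substrates. Libraries are numbered within a substrate from the lowest size factor, which is an order of depth and has no link to the numbering of the samples. The table pairs genes with protein numbers of the MycoCosm portal and not with names, so the members are described by number and no enzyme family is named.

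**Figure D1:**
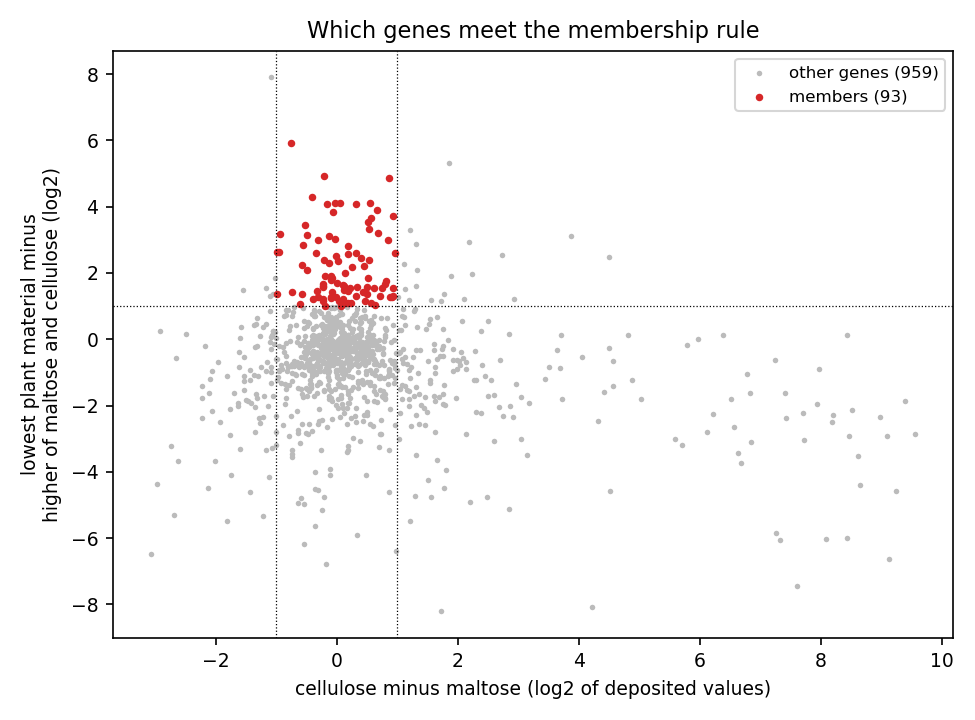
Each point is 1 of 1052 genes, with cellulose minus maltose on the horizontal axis and the lowest plant material minus the higher of maltose and cellulose on the vertical axis, both in log2 units of the deposited values. Dotted lines mark the limits of -1, 1 and 1, and the 93 members (red) fill the space between and above them up to 5.91.

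The edges of the set were gradual. Just inside the limit on the plant materials lay genes 1331141 and 636422, with differences of 1.00 and 1.01, and just outside lay genes 1324025 and 451419, with 0.99 and 0.98. On the cellulose side the outermost members were genes 1257053 and 1338160, which changed by -0.99 from maltose to cellulose. Genes 1432862 and 1331506, with 1.01 and -1.02, were left out. On the deposited scale cellulose minus maltose, which the rule kept within 1 of 0, was within 0.25 for 41 of 93 members and within 0.5 for 58. Its median was 0.07 over the members and 0.10 over all 1052 genes. The sign of this median depended on the scaling: with libraries centred on their medians it was -0.55 over the members and -0.52 over all genes, and after quantile normalisation -0.30 and -0.37. Of these 1052 genes, 72.7% met the condition on cellulose and 11.3% the condition on the plant materials.

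The difference on plant material spanned a wide range of sizes. The median member was higher than on maltose by 3.34 on pine, 2.62 on aspen and 2.40 on wheat straw, as log2 differences. Against cellulose the medians were 3.14, 2.63 and 2.23. The same medians over all genes lay between 0.01 and 0.56. The differences from maltose were smaller under other scalings, at 2.37, 1.83 and 1.52 with median centring and 2.27, 1.98 and 1.80 after quantile normalisation. Taking the lowest plant material against the higher of maltose and cellulose, 42 members differed by at least 2, 21 by at least 3 and 9 by at least 4. Over all genes 4.94%, 2.38% and 1.05% reached these differences. Since the choice rests on these contrasts, nothing is read from the shares.

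Gene 1277688 had the largest difference, 5.91. It had 130, 205 and 419 reads in the maltose libraries, 86 and 327 on cellulose, and 17501 and 24085 on wheat straw. Its deposited values went from 7.99 (maltose) and 7.23 (cellulose) to 13.91 (wheat straw), 13.90 (pine) and 14.73 (aspen). The cellulose libraries of this gene were far apart, at 6.34 and 8.13, and both stayed far below the straw libraries, at 13.75 and 14.07. Gene 1370542 came next, with a difference of 4.91. Its libraries lay close together on maltose, at 7.85, 7.94 and 7.85, and on wheat straw, at 12.86 and 12.72. On cellulose they were further apart, at 7.40 and 7.95. Its deposited means were 13.39 on pine and 12.80 on aspen, where its libraries were not solved. The means on straw and aspen were almost equal.

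The members included some of the most abundant transcripts of the plant cultures. Gene 1241654 had the highest value of all 1052 genes on pine (18.06) and on aspen (17.25) and the second highest on wheat straw (17.34), where its libraries held 200143 and 243257 reads. On maltose it ranked 60 with 13.40, and on cellulose 59 with 14.26, from 12818 and 37698 reads. Its cellulose value was thus the higher of the controls, and its cellulose libraries lay far apart, at 13.54 and 14.97. Gene 279258 ranked 5 on wheat straw (16.32) and on pine (16.89) and 7 on aspen (16.24), but 46 on maltose (13.80) and 70 on cellulose (14.05). On wheat straw its libraries stood at 16.47 and 16.17, and on cellulose at 14.29 and 13.82, with no overlap.

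With the log2 undone and the values summed, the 93 members made up 2.48% of the table on maltose and 2.13% on cellulose. They made up 18.9% on pine, 17.8% on aspen and 15.2% on wheat straw. These are shares of back-transformed means over the 1052 genes and not of the reads of a library. Among the 100 highest genes of a substrate there were 2 members on maltose, 2 on cellulose, 18 on pine, 17 on aspen and 16 on wheat straw, with 93 members among the 1052 genes. The rule asked for higher values on the plant materials, so the direction of both changes follows from the choice.

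At the other end, 10 members were below 4 on both maltose and cellulose, with at most 28 reads in any of those libraries. The median difference of these 10 was 1.76, and it was 1.78 for the 35 members whose higher control value lay from 4 to 8, 2.06 for the 26 from 8 to 10 and 1.58 for the 22 from 10 up. Since the rule cut these differences off at 1 and took them from the same control values, no relation between size and level is read from these medians. The scale, log2(normalised reads + 1), makes changes of genes with few reads look smaller than they are.

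**Figure D2:**
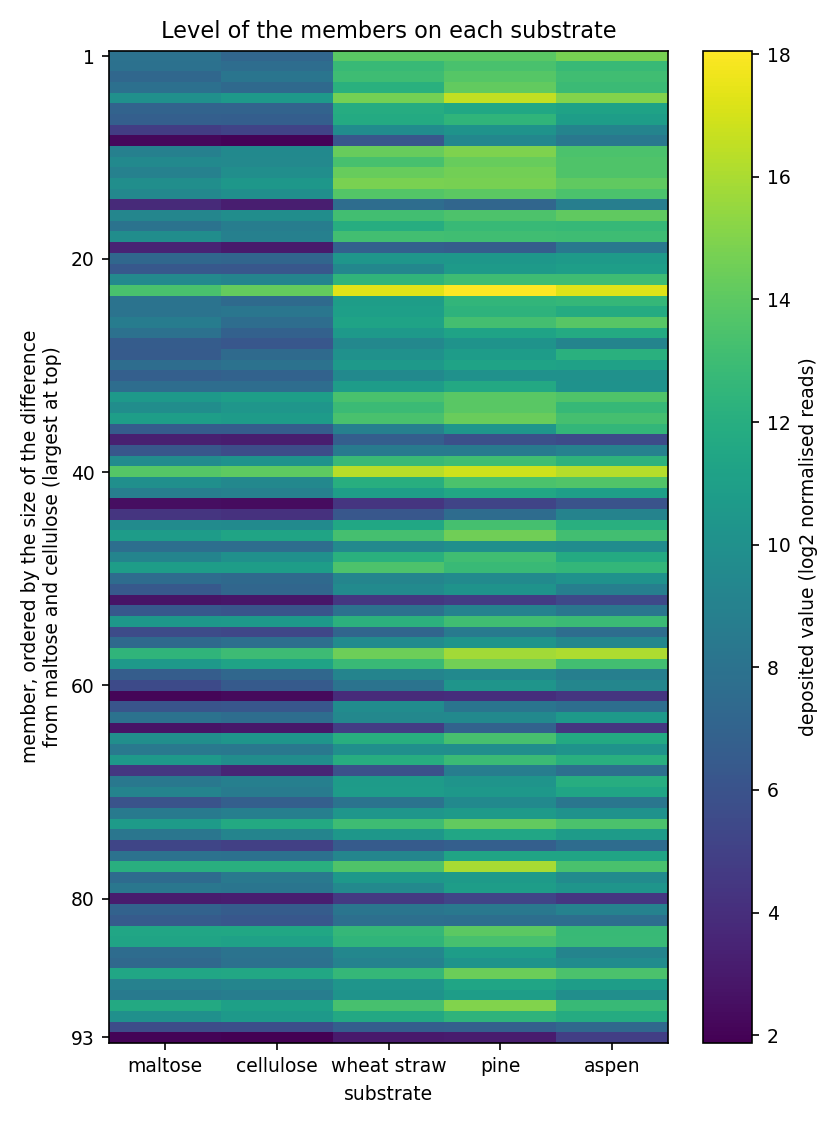
Rows are the 93 members, ordered by the difference of the lowest plant material from the higher of maltose and cellulose, and columns are the 5 substrates. Colour gives the deposited log2 normalised read count, which runs from 1.87 to 18.06 and is brightest on pine for gene 1241654.

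Single libraries followed the substrate means. In 49 of the 50 members solved in all libraries, every library on a plant material lay above every maltose and cellulose library. Over the 746 genes solved in all libraries this held for 13.9%. Because the rule chose the members on means of these same libraries, this separation largely follows from the choice and is a description. The exception was gene 1331141, with 1, 2 and 10 maltose reads, 1 and 7 cellulose reads, and 8 and 12 reads on wheat straw. Pine gave 4, 8 and 8 reads and aspen 19, 43 and 37. The spread within a substrate was close to that of all genes. The median SD of the members was 0.16 for the maltose libraries (0.19 for all genes) and 0.31 for cellulose (0.29). It was 0.18 for wheat straw (0.17), 0.31 for pine (0.30) and 0.23 for aspen (0.23).

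The 2 cellulose libraries did not hold the members at the same level. Library 2 was the higher for 65 of 93 members, by a median of 0.36, whereas over all 1052 genes it was the higher for 499, with a median difference of -0.04. Without cellulose library 1, 83 genes met the rule, 72 of them among the 93, and without library 2, 97 met it, 85 of them among the 93. On wheat straw, library 2 was the higher for 59 of 93 members, by a median of 0.12, against 477 of 1050 genes solved there. On pine, library 1 gave the highest value for 33 of 52 solved members and for 427 of 795 solved genes. The maltose libraries divided the members much as they divided all genes, with the highest value in library 1 for 43.8% of solved members and 40.7% of all solved genes. The part of single libraries in the results was not tested beyond leaving each out.

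Among the plant materials, pine gave the highest value for 57 members, aspen for 29 and wheat straw for 7. Wheat straw gave the lowest for 54, aspen for 32 and pine for 7. Over all genes the highest value was on pine for 43.8%, on aspen for 30.0% and on wheat straw for 26.1%. The most frequent orders were pine over aspen over wheat straw, with 31 members, pine over wheat straw over aspen, with 26, and aspen over pine over wheat straw, with 23. Counts of the lowest material and of the orders are given without those of all genes, so nothing is read from them. Pine also lay above wheat straw and aspen over all genes, by medians of 0.22 and 0.11. A member was called between materials when limma's adjusted p over all 1052 genes was below 0.05 and the log2 difference at least 1. By this rule 50 of 93 members (53.8%) were called in at least 1 of 3 comparisons, where 44.2% of all genes were.

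Pine against wheat straw sets a softwood against a grass at the same maltose concentration. Here 32 members were higher on pine and 1 was lower, 34.4% and 1.08% of the 93. Over all genes 18.8% were higher and 8.84% lower. The median difference was 0.72 over the members and 0.22 over all genes. Among the 52 members solved on both materials 15 (28.8%) were higher and 1 lower, against 11.7% and 10.3% of all genes solved on both. With libraries centred on their medians 30 members were higher and 1 lower, where 176 and 102 of all genes were. After quantile normalisation the counts were 22 and 2 for the members, and 111 and 113 for all genes.

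Gene 1410238 had the largest difference of pine from wheat straw. It was close to silent in the controls, with 2, 2 and 8 reads on maltose and 2 and 6 on cellulose. It had 91 and 117 reads on wheat straw, 746, 529 and 397 on pine, and 296, 297 and 487 on aspen. On the log2 scale this was 6.29 on wheat straw (SD 0.16 over 2 libraries) and 9.35 on pine (SD 0.64 over 3), a difference of 3.05 (SE 0.44, limma adjusted p = 0.00055). Aspen, at 8.33, was also above wheat straw, by 2.03 (SE 0.44, adjusted p = 0.00681), a call that was lost without wheat straw library 1, at 1.92 (adjusted p = 0.0552). Gene 1338160 followed with a difference of 2.85 (SE 0.38, adjusted p = 0.000312). It had 79 and 75 reads on wheat straw against 400, 398 and 270 on pine, and the materials did not overlap. Its controls were not fully level, with 14, 13 and 39 reads on maltose and 14 and 10 on cellulose.

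In the other direction stood only gene 299586, the member called lower on both woods than on wheat straw. Its values were 10.42 and 9.07 on wheat straw, 8.58, 7.97 and 7.99 on pine, and 7.59, 7.90 and 7.68 on aspen. On maltose it lay between 6.01 and 6.30, and on cellulose at 6.40 and 6.10. Pine was lower than wheat straw by -1.56 (SE 0.34, adjusted p = 0.00473) and aspen by -2.02 (SE 0.34, adjusted p = 0.00171). The straw libraries were far apart, with 1734 and 749 reads. Without wheat straw library 1 the difference on pine was -0.89 (adjusted p = 0.0529) and no longer a call, and that on aspen was -1.35 (adjusted p = 0.0141).

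**Figure D3:**
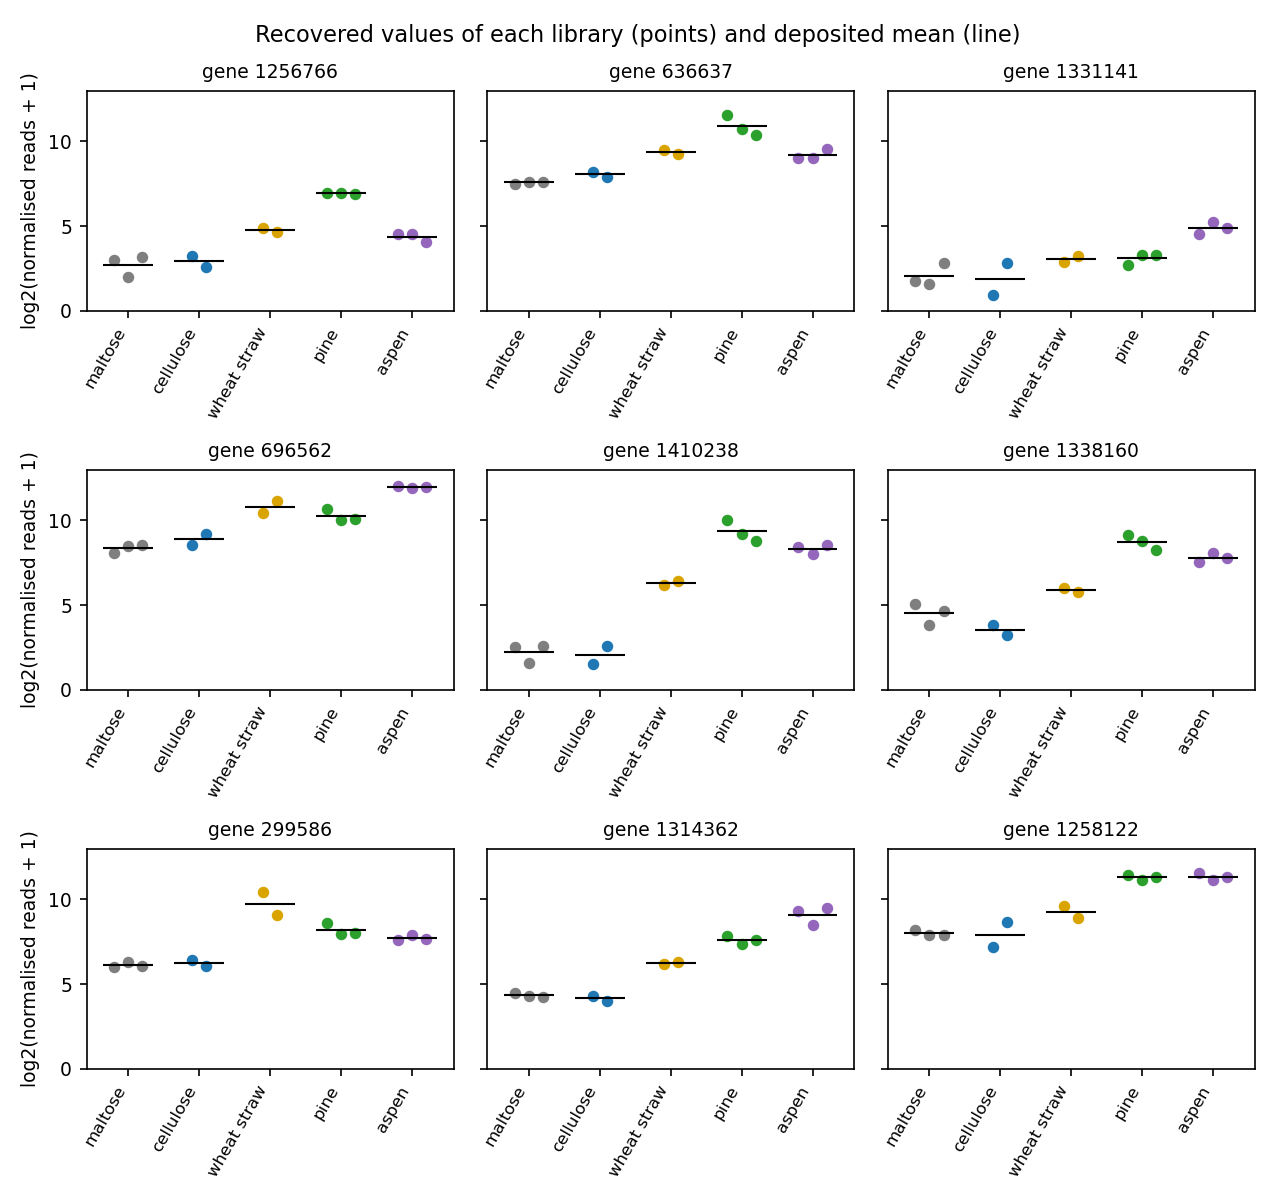
Each panel shows 1 member, with the recovered log2(normalised reads + 1) of every library as points and the deposited mean of each substrate as a line. Genes 1410238, 1338160, 1256766 and 636637 peak on pine, genes 1314362, 696562 and 1331141 on aspen, gene 1258122 on both woods and gene 299586 on wheat straw.

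Aspen against wheat straw compares a hardwood with a grass, with the maltose concentration of the aspen cultures unknown. Here 17 members (18.3%) were higher on aspen and 1 (1.08%) was lower, while over all genes 9.7% were higher and 6.27% lower. Among the 54 members solved on both materials 12 (22.2%) were higher and 1 lower, against 9.27% and 7.34% of all genes solved on both. The median difference was 0.33 over the members and 0.03 over all genes. Without wheat straw library 1 the higher calls numbered 10, all of them among the 17, and the lower calls 2. With median centring the split was 21 and 1 for the members, and 124 and 61 for all genes. After quantile normalisation it was 18 and 3 for the members, and 103 and 96 for all genes. Gene 1314362 had the largest difference among solved members. Its reads were 91 and 109 on wheat straw, 163, 144 and 177 on pine, and 549, 416 and 909 on aspen, while maltose gave 9, 19 and 29 and cellulose 20 and 18. The 3 plant materials formed a staircase without overlap, at 6.24 (SD 0.08 over 2 libraries), 7.60 (SD 0.25 over 3) and 9.08 (SD 0.52 over 3). Aspen exceeded wheat straw by 2.84 (SE 0.28, adjusted p = 0.0001) and pine was below aspen by -1.48 (SE 0.25, adjusted p = 0.0012).

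Gene 1258122 was a member with nearly equal means on both woods. It stood at 9.62 and 8.92 on wheat straw, at 11.46, 11.14 and 11.34 on pine, and at 11.54, 11.13 and 11.31 on aspen. Aspen was above wheat straw by 2.05 (SE 0.36, adjusted p = 0.00219) and pine by 2.04 (SE 0.36, adjusted p = 0.00172), while pine minus aspen was -0.01, with a 95% interval from -0.73 to 0.70. On cellulose its libraries lay at 7.16 and 8.65, on either side of the 3 maltose libraries at 8.21, 7.87 and 7.91.

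Pine against aspen sets softwood against hardwood. As deposited, 24 members were higher on pine and 6 lower, 25.8% and 6.45%, where 16.6% of all genes were higher and 7.13% lower. The median difference was 0.52 over the members and 0.11 over all genes. This split depended on the scaling. With median centring it was 16 higher and 9 lower, where 137 and 121 of all genes were. After quantile normalisation it was 9 higher and 11 lower, where 107 and 90 of all genes were. Centring moved the median over all genes from 0.11 to -0.07. The split also went with the level of the genes. Of the 22 members at 10 or above on the higher control, 9 were higher on pine and 0 lower, and of the 10 members below 4, 1 was higher and 2 lower. Over all genes the corresponding counts were 90 and 13 of 389, for control values from 10 to 15, and 5 and 11 of 76. Among the 50 members solved on both woods 9 (18.0%) were higher and 5 lower, against 11% and 7.53% of all genes solved on both. The other higher calls were on members whose spread on pine, aspen or both was taken from other substrates, and the members' median SD was 0.16 on maltose and 0.31 on pine. The part of this spread, of level and of scaling in this split was not tested further.

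Gene 1256766 was the clearest pine member of this comparison. Its pine libraries were nearly identical, with 6.97, 6.93 and 6.92, against 4.51, 4.55 and 4.05 on aspen and 4.88 and 4.66 on wheat straw. Pine exceeded aspen by 2.57 (SE 0.33, adjusted p = 0.000294) and wheat straw by 2.17 (SE 0.37, adjusted p = 0.0013). Its reads were few on maltose, with 3, 3 and 13, and on cellulose, with 9 and 6. Gene 636637 showed the same order at a higher level, with 11.57, 10.73 and 10.37 on pine, 9.01, 9.02 and 9.52 on aspen, and 9.49 and 9.26 on wheat straw. Its difference of pine from aspen was 1.70 (SE 0.27, adjusted p = 0.000866), and aspen and wheat straw overlapped.

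Among the 6 members lower on pine than on aspen, gene 696562 had 3623, 4531 and 5150 reads on aspen, 1149, 913 and 965 on pine, and 1735 and 3156 on wheat straw. On the log2 scale its aspen libraries were almost equal, at 11.97 (SD 0.04 over 3 libraries), against 10.24 on pine (SD 0.37 over 3). Pine was below aspen by -1.73 (SE 0.25, adjusted p = 0.000595), and the pine and straw libraries overlapped. Gene 1331141, at the edge of the set, differed by -1.77 (SE 0.51, adjusted p = 0.0168), on at most 8 reads per pine library. Its call was lost without aspen library 2, at -1.58 (adjusted p = 0.0609), after quantile normalisation, at -1.41 (adjusted p = 0.0511), and with 32 in place of 1 added before the log, at -0.61. Gene 1323956, named after its values were seen, had the widest span of all members over the plant materials, 3.62, from 8.95 on wheat straw over 10.39 on pine to 12.56 on aspen. Its aspen libraries were not solved, so its spread there is missing.

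**Figure D4:**
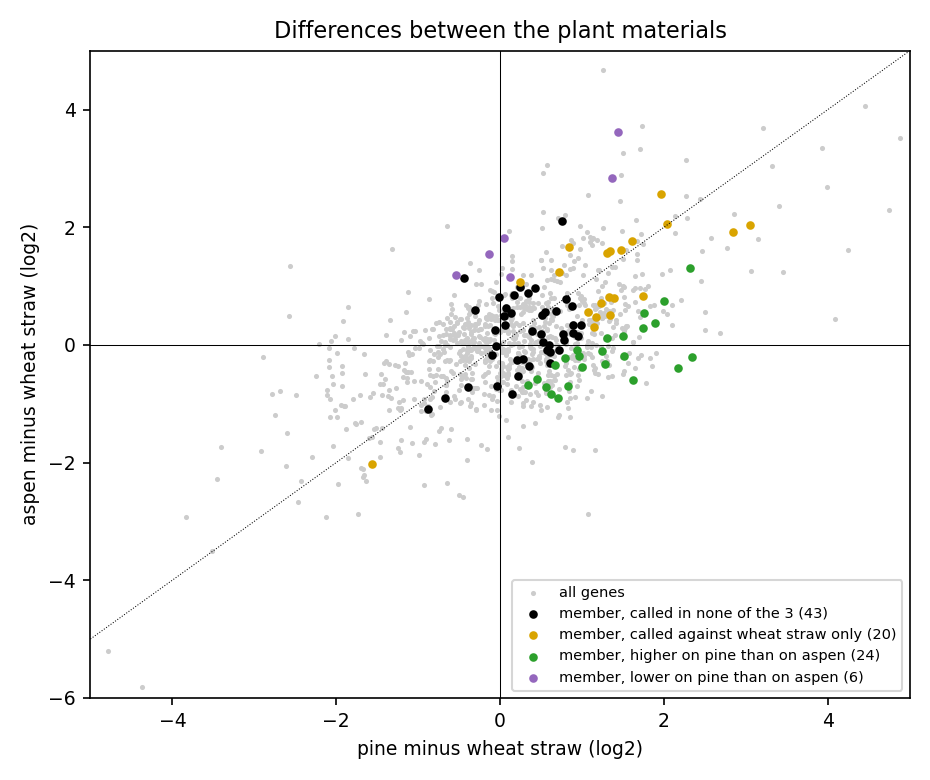
Pine minus wheat straw (horizontal) and aspen minus wheat straw (vertical) are plotted in log2 units for all genes (grey) and the 93 members, coloured by their calls, with the dotted line where pine equals aspen. The members lie mostly right of and above 0, with 24 called higher on pine than on aspen, 6 called lower, 20 called against wheat straw only and 43 in no comparison.

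The other 43 members were called in none of the 3 comparisons, which does not show that their levels were equal. In 40 members the 3 plant materials lay within 1 of each other, and in 12 they spanned at least 2. The median span was 1.07, close to the 1.03 of all genes. Gene 1322033 had the smallest span, 0.05, and is named here after its values were seen. It had 276 and 303 reads on wheat straw, 120, 210 and 207 on pine, and 210, 257 and 239 on aspen. The 95% intervals of its 3 differences all lay between -0.52 and 0.45. Because the gene was picked for its small span, these intervals lie near 0 by choice, and no equality of levels is read from them.

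A set of 120 genes that were at least 1 higher on cellulose, and on each plant material, than on maltose had another profile among the plant materials. In it wheat straw was the highest material for 46 genes (38.3%), against 7 members (7.53%), and pine for 37 (30.8%), against 57 (61.3%). Of the 120, 18 were called higher and 29 lower on pine than on wheat straw, 13 higher and 8 lower on aspen than on wheat straw, and 17 higher and 19 lower on pine than on aspen. Its median differences were -0.13, -0.06 and -0.24, where those of the 93 members were 0.72, 0.33 and 0.52. After quantile normalisation they were -0.47, -0.13 and -0.49 for the 120 genes and 0.39, 0.39 and 0.09 for the members. On cellulose the 120 genes made up 27.0% of the summed values, against 2.13% for the members, as the choice of both sets implies. The 120 genes and the members cannot overlap by construction and were formed from the same values, so the contrast between them is a description. Another set of 46 genes, 11 of them members, was at least 1 higher on both woods than on maltose, cellulose and wheat straw. Of the 46, 3 were called higher and 5 lower on pine than on aspen.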

How the data were processed

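Messenger RNA of 14 samples on 5 substrates was measured by RNA sequencing (paired reads of 150 bp, per the labels' protocols). The authors deposited 1 normalised log2 read count per gene and substrate, per the file headers. The tools named in the submitters' processing notes are DESeq (version 1.5), HTSeq and TopHat2. The sources used here do not state their roles, the genome build or how the 1052 genes were selected.

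Each deposited value was modelled as log2(reads × scale + 1), averaged over the libraries of its substrate. The scales were searched on the 16 lowest values in each column and then refitted on low values with a single combination of whole reads. They were checked on the 60 lowest values, which the refit could also use, so the check is not independent. All 60 came out as whole reads within 1e-09 in every column, and at most 1 did with scales moved by 1%. Maltose, pine and aspen needed 3 libraries, cellulose and wheat straw 2. Reads were kept where a single combination of whole reads gave the value, searched above a value of 6 within 4-fold (3 libraries) or 16-fold (2 libraries) of the mean either way. This solved 1052 genes for cellulose, 1050 for wheat straw, 899 for maltose, 831 for aspen and 795 for pine. In simulated columns 821 of 1052 genes were solved for pine and 1051 for cellulose, all with the right reads. No pair of libraries from the same substrate was alike within sampling noise (chi-square divided by its degrees of freedom was 10.4 or more).

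Library values were fitted with limma 3.58.1, run in R 4.3.3 (all libraries, a term for each substrate, spread trended over levels, Benjamini-Hochberg adjustment over all 1052 genes). Unsolved genes kept the deposited mean. On reads simulated for pine minus aspen, with 1052 genes, the calls held 30 of 67 genes with a 2-fold change. They held 67 of 67 with 4-fold, 66 of 66 with 8-fold and 2 of 852 with none. A 2-fold change equals the limit for a call, so genes simulated with it fall on either side of that limit by noise alone. Besides counting noise, the simulated libraries varied independently, with the same spread for every gene and no shift of a whole library. The real spread differed between genes and substrates, so these rates may not carry over to the calls reported here.

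The members, comparison sets and tests were chosen with earlier results of these data known. Genes named were the 2 members with the largest difference from the controls, the 2 most abundant on plant materials, up to 2 per direction and comparison with the largest calls among solved members whose libraries did not overlap, and those next to the limits of the rule. Alternatives were median centring, quantile normalisation, 32 in place of 1 as the added constant, a filter on means below 3, other limits of the rule, plant libraries alone, solved members alone and leaving out each library. Reads were solved in Python 3.11.15 with numba 0.67.0 on NumPy 2.4.6, and figures were drawn with matplotlib 3.10.9.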

Additional observations from a re-analysis of the deposited data

How the results depend on the processing

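The size of the set depended on the scaling. With each library centred on its median 55 genes met the rule, 47 of them among the 93, and 63 did after quantile normalisation, 57 of them among the 93. Centring moved the median of all genes from 0.19 to -0.68 for wheat straw minus maltose, from 0.56 to -0.41 for pine and from 0.30 to -0.48 for aspen. Asking for a difference of 1.5 left 61 genes, and leaving out single libraries gave 83 to 97. For pine minus aspen, quantile normalisation gave 9 members higher and 11 lower, and members solved on both woods alone gave 9 higher. For pine minus wheat straw, members solved on both gave 15 higher, and quantile normalisation 2 lower. The single lower call became 0 to 2 when libraries were left out, with 0 without wheat straw library 1 and 2 without pine library 1. For aspen minus wheat straw, the lower calls numbered 3 after quantile normalisation and 2 with the plant material libraries alone, and 1 to 2 when libraries were left out (2 without maltose library 1 or 3, wheat straw library 1 or aspen library 3), while the higher calls numbered 10 to 19. The cause of these changes was not tested. Of the 19 called differences of the 9 named genes tested, none changed direction in the alternatives run, and 14 values lost the call. These were 11 of gene 1331141 and 1 each of genes 299586, 696562 and 1410238, the last 3 without wheat straw library 1. Gene 1331141 has no value under the filter on low means. With 41 members not solved on pine and 39 on aspen, leaving out a library of those woods does not move their means. The count tests planned on recovered reads, and a comparison of their scalings, were not run. No paired analysis was possible because the deposited columns carry no replicate numbers.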
